A study of Mus musculus with 6 samples.

Results

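The 10 genes described here encode transcription factors of hair follicle differentiation: *Foxn1*, *Hoxc13*, *Msx1*, *Msx2*, *Dlx3*, *Gata3*, *Foxq1*, *Ovol1*, *Sox21* and *Cux1*. They were chosen by name, with earlier results of these data known, so their directions here are not independent evidence. The names were matched through the Ensembl identifiers that GENCODE release M21 of the mouse assembly GRCm38 pairs with them. The factors make up 10 of the 26579 genes in the table of counts. All 10 were in the table and all passed the filter on low counts. The counts come from RNA-Seq of whole skin taken from the back of the neck. All 6 mice were females aged 33 days, of which 3 carried the YAP2-5SA-∆C transgene and were in the first stage of its outward signs, and 3 were wild type littermates. The transgene expresses a mildly activated form of YAP, the coactivator at the end of the Hippo kinase pathway, in basal keratinocytes of the epidermis, and the wild type mice do not carry it. No other allele or treatment is given for either group. Each library came from 1 mouse, and the stage of the hair cycle of each mouse is not given in the sources used here.

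The lower hair follicle grows from a matrix of dividing keratinocytes around the dermal papilla. Matrix cells that move upward enter separate lineages, which form the medulla, cortex and cuticle of the hair shaft and the layers of the inner root sheath around it, and each lineage makes its own keratins. The factors described here act in these lineages. *Hoxc13*, *Foxn1*, *Msx2* and *Dlx3* are known for switching on genes of the shaft, *Foxq1* for the medulla, *Sox21* for the cuticle, and *Gata3*, *Cux1* and *Dlx3* too for the inner root sheath. Some also act in the epidermis between the follicles, among them *Dlx3*, *Ovol1* and *Gata3*.

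In all 3 YAP2-5SA-∆C libraries, 9 of the 10 factors had lower values than in every wild type library, whereas *Gata3* had values that overlapped between genotypes. Of all 15102 genes tested, 18.2% lay without overlap below wild type in this way and 15.5% above it. *Msx2*, *Foxn1* and *Hoxc13* had the lowest fold changes of the 10, at 0.458, 0.462 and 0.47 of their wild type means, and *Msx1*, *Foxq1* and *Dlx3* followed at 0.513, 0.537 and 0.601. The values of *Cux1*, *Sox21* and *Ovol1* differed less, at 0.76 to 0.808 of wild type. These differences did not pass the threshold of the quasi-likelihood test of edgeR, which was the main test. In it, 0 of the 10 factors had an FDR (p-value adjusted by Benjamini-Hochberg over all genes tested) below 0.05, 9 were lower at an unadjusted p-value under 0.05, as were 13% of all genes tested, and the lowest FDR was 0.061. Among all genes, that test called 0.464% lower and 1.44% higher in YAP2-5SA-∆C skin. The likelihood-ratio test of edgeR, which the methods of the study list, called 6 factors lower and 0 higher: *Foxn1*, *Hoxc13*, *Msx1*, *Msx2*, *Dlx3* and *Foxq1*. It called 4.87% of all genes lower and 5.52% higher. The Wald test of DESeq2 also called 6 factors lower, with *Cux1* in place of *Hoxc13*, against 4.18% of all genes. Voom called 0 of the factors, with a lowest FDR of 0.0589, against 0.417% of all genes lower. The median log2 fold change of the 10 factors was -0.82, beside -0.013 over all genes tested.

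Counts per library totalled 11225705 to 19505036. The 10 factors had 74 to 7961 counts in a library, and all values below are CPM (counts scaled to the same library size) on library sizes scaled by the TMM method, unless a length is named. In the values of these factors, YAP2-5SA-∆C replicate 2 stood apart from the other libraries, and it was the lowest of the 6 for 9 of the 10 factors. Without it, the quasi-likelihood test called 6 of the 10 factors lower, beside 2.74% of all genes. In a biopsy of whole skin, a lower count can come from fewer cells that express a gene or from less of its RNA in each cell, and these cannot be told apart here.

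**Figure D1:**
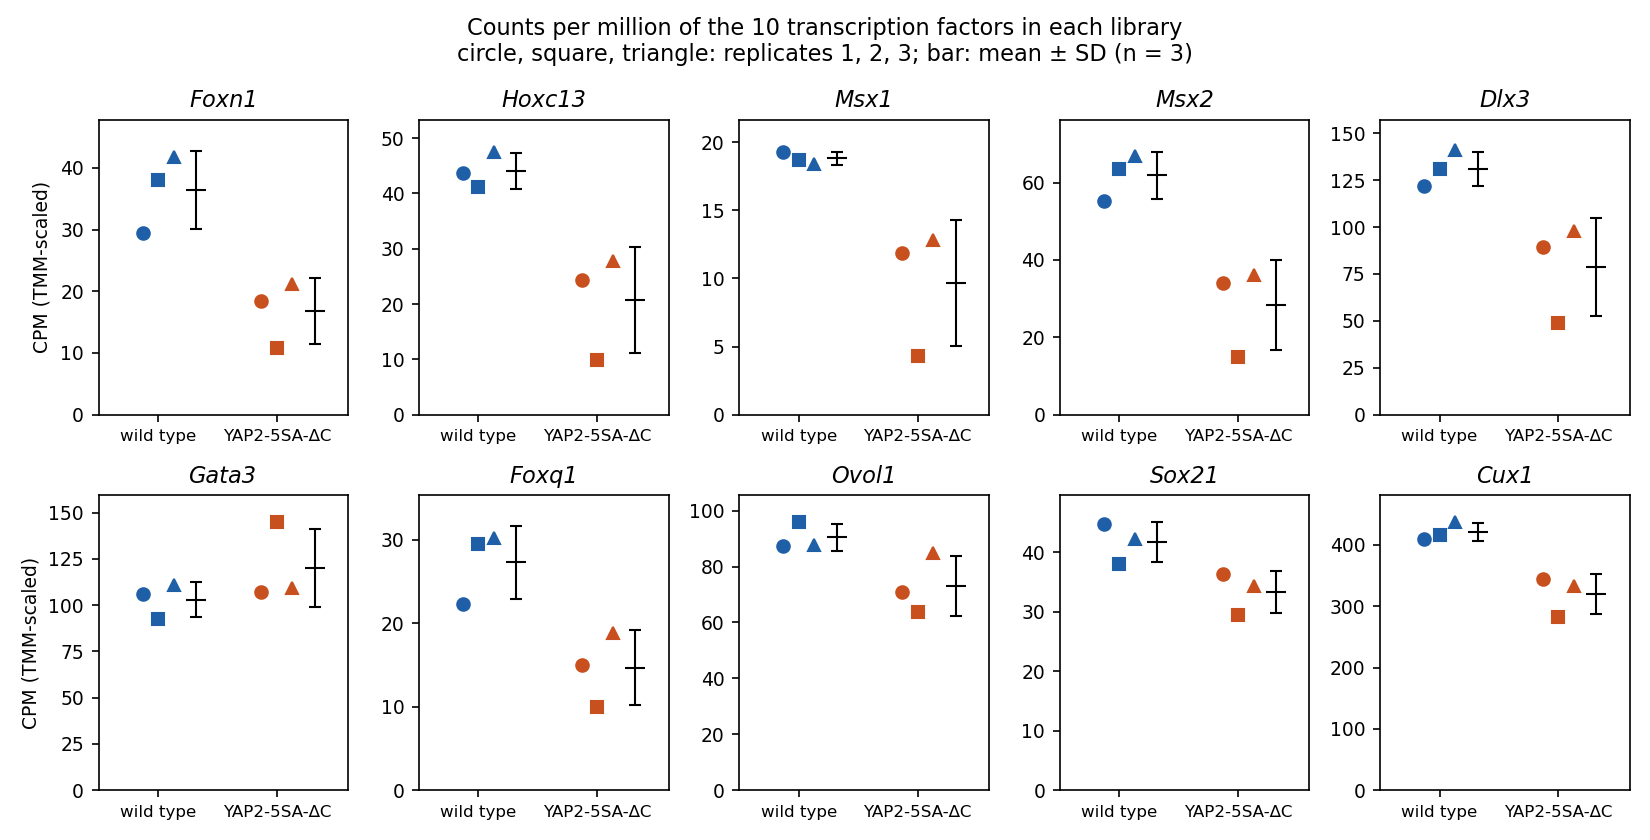
TMM-scaled CPM (vertical axis, from 0) of each of the 10 factors in the wild type and YAP2-5SA-∆C libraries, with circles, squares and triangles for replicates 1, 2 and 3 and a bar for the mean ± SD (n = 3). All YAP2-5SA-∆C points lie below all wild type points for 9 factors, the square of replicate 2 is the lowest point for those 9, and for *Gata3* it is the highest.

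The stretches of promoter below are shown because they hold the letters TAATTA, the core that homeodomain proteins such as MSX and DLX factors bind, close to the start of 2 of the genes described here. RefSeq promoters were at hand for 6 of the factors (*Foxn1*, *Msx1*, *Msx2*, *Gata3*, *Sox21* and *Cux1*), and the 250 bases before each start were searched on both strands. Each stretch is written 5′ to 3′ on the strand of its gene, from the RefSeq table of GRCm38.p6, with the match in capitals. That of *Foxn1* lies at chr11:78386620-78386649 on the minus strand, with the match beginning 29 bases before the start. That of *Msx2* lies at chr13:53472950-53472979 on the minus strand, with the match beginning 187 bases before the start, in sequence that GENCODE annotates as exon of the same gene.
Foxn1: aagctgatatcaTAATTAttggctcaccca
Msx2: tgactgctcctgTAATTAactcctaattta
TAATTA was found in 4.84% of all 32851 RefSeq promoter windows of this length. GACGC, a core bound by FOXN factors, was found in the windows of *Msx2* (2 matches, 110 and 101 bases before the start) and *Gata3* (1 match, 12 bases before), and in 22.6% of all windows. AGATAA, a form of the GATA motif, and GGAATG, a form of the motif of the TEAD partners of YAP, had no match in the 6 windows, against 9.99% and 12.6% of all windows. A match describes letters only, and no binding was measured.

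*Foxn1* (ENSMUSG00000002057, chromosome 11 from 78357577 to 78386558, minus strand) is the gene mutated in nude mice, whose hair shafts form without proper keratinisation. It had 29.5, 38.0 and 41.7 CPM in wild type replicates 1, 2 and 3, and 18.4, 10.8 and 21.2 CPM in YAP2-5SA-∆C replicates 1, 2 and 3. The groups did not overlap, and their nearest values were those of wild type replicate 1 and YAP2-5SA-∆C replicate 3. The means were 36.4 ± 6.27 CPM and 16.8 ± 5.37 CPM (SD, n = 3 each), a difference of -1.11 on the log2 scale (standard error, SE, of 0.25). It passed in the likelihood-ratio test, where the FDR was 0.000168, and missed the threshold in the quasi-likelihood test at 0.0619. With all 6 libraries *Foxn1* had the lowest likelihood-ratio FDR of the 10 factors. Without YAP2-5SA-∆C replicate 2, in a fit added after seeing the data, *Msx2* (7.53e-06) and *Hoxc13* (5.04e-05) were below *Foxn1* (0.000139). The study placed *Foxn1* and *Msx2* on a list of genes that it chose on these same samples, so their presence here is not independent evidence of a direction. The study then measured both genes in cultured HaCaT keratinocytes. There it found *FOXN1* higher after knockdown of YAP and in quiescent cells, and *MSX2* unchanged in both assays.

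*Hoxc13* (ENSMUSG00000001655, chromosome 15 from 102921103 to 102928814, plus strand) encodes a homeodomain protein that binds promoters of hair keratin genes. Its values were 43.6, 41.1 and 47.5 CPM in wild type and 24.4, 9.86 and 27.8 CPM in YAP2-5SA-∆C skin. Replicates 1 and 3 of YAP2-5SA-∆C lay close together, and replicate 2 was below both by more than the whole range of wild type. The difference was -1.09 on the log2 scale (SE 0.34), with a quasi-likelihood FDR of 0.106 and a likelihood-ratio FDR of 0.00442. Without YAP2-5SA-∆C replicate 2 it was -0.74 (SE 0.10), with a quasi-likelihood FDR of 0.0147. DESeq2 did not call it, with an FDR of 0.096.

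*Msx1* and *Msx2* encode closely related homeodomain proteins of the matrix and the young shaft. *Msx1* (ENSMUSG00000048450, chromosome 5 from 37820485 to 37824583, minus strand) was at 19.3, 18.7 and 18.4 CPM in wild type, the closest agreement of any of the 10 factors (coefficient of variation 2.39%). In YAP2-5SA-∆C skin it was at 11.9, 4.34 and 12.8 CPM, and replicate 2 held only 74 counts. *Msx1* differed by -0.96 on the log2 scale (SE 0.35), with a quasi-likelihood FDR of 0.145 and a likelihood-ratio FDR of 0.0157. Both YAP2-5SA-∆C libraries other than replicate 2 were below wild type by several times the wild type range.
*Msx2* (ENSMUSG00000021469, chromosome 13 from 53466884 to 53473074, minus strand), whose loss in mice leaves the shaft poorly differentiated, had 55.2, 63.6 and 66.9 CPM in wild type and 34.1, 14.9 and 36.0 CPM in YAP2-5SA-∆C skin. Its groups were separated by a wide gap in which no library lay. *Msx2* differed by -1.13 on the log2 scale (SE 0.31), with a quasi-likelihood FDR of 0.0811 and a likelihood-ratio FDR of 0.00119. With all 6 libraries it had the most negative fold change of the 10 factors, next to *Foxn1* at -1.11. Without YAP2-5SA-∆C replicate 2, *Foxn1* was more negative than *Msx2* (-0.86 against -0.80). Without YAP2-5SA-∆C replicate 3, *Hoxc13* was (-1.36 against -1.33).

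*Dlx3* (ENSMUSG00000001510, chromosome 11 from 95120119 to 95125296, plus strand) encodes a homeodomain protein needed for the shaft and the inner root sheath, and acts in the upper epidermis as well. It was measured at 122, 131 and 141 CPM in wild type and at 89.5, 49.1 and 98.0 CPM in YAP2-5SA-∆C skin. All wild type libraries were above all YAP2-5SA-∆C libraries. The difference was -0.73 on the log2 scale (SE 0.24), with a quasi-likelihood FDR of 0.112 and a likelihood-ratio FDR of 0.0182. The likelihood-ratio call of *Dlx3*, like that of *Msx1*, was lost without wild type replicate 2 (FDR 0.0982 for *Dlx3* and 0.0832 for *Msx1*) and without wild type replicate 3 (FDR 0.145 and 0.0748), fits added after seeing the data.

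*Foxq1* (ENSMUSG00000038415, chromosome 13 from 31556134 to 31560976, plus strand) is the gene of the satin coat, in which the medulla of the shaft is malformed. It had 22.3, 29.5 and 30.2 CPM in wild type and 15.0, 9.98 and 18.9 CPM in YAP2-5SA-∆C skin. The lowest wild type library, replicate 1, lay closer to the highest YAP2-5SA-∆C library than to the other wild type libraries. The difference was -0.90 on the log2 scale (SE 0.23), with a quasi-likelihood FDR of 0.0758 and a likelihood-ratio FDR of 0.00227. The count of *Foxq1* is uncertain in 1 respect. The gene A530084C06Rik on the opposite strand overlaps 3200 bases, or 66.1%, of its exons, and the strand setting of the counting is not given in the sources used here. A530084C06Rik itself had 3 to 21 counts in a library.

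*Ovol1* and *Sox21* differed less between genotypes. *Ovol1* (ENSMUSG00000024922, chromosome 19 from 5549136 to 5560646, minus strand) encodes a zinc finger protein of keratinocytes leaving the cell cycle. It was at 87.5, 96.1 and 87.9 CPM in wild type and at 70.8, 63.8 and 84.8 CPM in YAP2-5SA-∆C skin, so that YAP2-5SA-∆C replicate 3 lay just below the lowest wild type library. *Ovol1* differed by -0.31 on the log2 scale (SE 0.11), and it passed in neither edgeR test, where its FDR was 0.135 (quasi-likelihood) and 0.255 (likelihood-ratio).
*Sox21* (ENSMUSG00000061517, chromosome 14 from 118233232 to 118237030, minus strand), which acts in the cuticle of the shaft, had 44.8, 38.0 and 42.2 CPM in wild type and 36.3, 29.4 and 34.3 CPM in YAP2-5SA-∆C skin. Here too the groups were next to each other with a small gap. Its log2 fold change was -0.32 (SE 0.10), with a quasi-likelihood FDR of 0.108 and a likelihood-ratio FDR of 0.224. When CPM were scaled by library totals alone, 7 factors remained without overlap, and *Ovol1* and *Sox21* then overlapped. Opposite-strand genes overlap 19.8% of the exons of *Ovol1* (Gm31166) and 18.8% of those of *Sox21* (Gm4675), and without a known strand setting reads in these stretches cannot be assigned to either gene. Gm4675 had 11 to 27 counts in a library, against 444 to 817 for *Sox21*, and Gm31166 was not analysed here.

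*Cux1* (ENSMUSG00000029705, chromosome 5 from 136248135 to 136567490, minus strand), a homeodomain factor of the inner root sheath, had the highest counts of the 10. It was at 409, 416 and 438 CPM in wild type and at 344, 282 and 333 CPM in YAP2-5SA-∆C skin. The spread was small in both groups, with means of 421 ± 14.9 CPM and 320 ± 33.1 CPM (SD, n = 3 each). The difference was -0.40 on the log2 scale (SE 0.09), with a quasi-likelihood FDR of 0.061 and a likelihood-ratio FDR of 0.0572. DESeq2 called it (FDR 0.00244). The gene has 14 annotated transcripts, some of which encode the Golgi protein CASP in place of the transcription factor, and counts per gene do not separate them.

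*Gata3* (ENSMUSG00000015619, chromosome 2 from 9857078 to 9890034, minus strand), which specifies the inner root sheath and is also expressed in the epidermis and in T cells, was the exception. It had 106, 92.3 and 111 CPM in wild type and 107, 145 and 109 CPM in YAP2-5SA-∆C skin. Replicates 1 and 3 of YAP2-5SA-∆C lay within the wild type range, and only replicate 2 lay above it. The difference was 0.22 on the log2 scale (SE 0.13), with a quasi-likelihood FDR of 0.32 and a likelihood-ratio FDR of 0.534. Without YAP2-5SA-∆C replicate 2 it was 0.09.
The summed markers of other cells that express *Gata3* were also highest in that library, though not every marker was. Of 5 suprabasal keratinocyte genes, 0 passed the quasi-likelihood test, 1 was higher in the likelihood-ratio test and 2 in DESeq2, and their summed level was 3860 to 4730 CPM in wild type and 5620, 9330 and 5050 CPM in YAP2-5SA-∆C replicates 1, 2 and 3. Of 6 T cell genes, 4 were tested and 0 passed either edgeR test, and the sums were 54.6 to 84.5 CPM in wild type and 79.9, 122 and 88.9 CPM in YAP2-5SA-∆C skin. Most of that sum was *Thy1*, which fibroblasts also make, whereas the T cell receptor genes *Cd3g* and *Cd3e* were at no more than 3.93 and 2.30 CPM, and *Cd3e* was highest in YAP2-5SA-∆C replicate 3. No gene of either list was at 0 in any library. The sums of the basal keratinocyte, macrophage and fibroblast markers were highest in YAP2-5SA-∆C replicate 2 as well. The part of any of these cells in the value of *Gata3* was not tested.

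**Figure D2:**
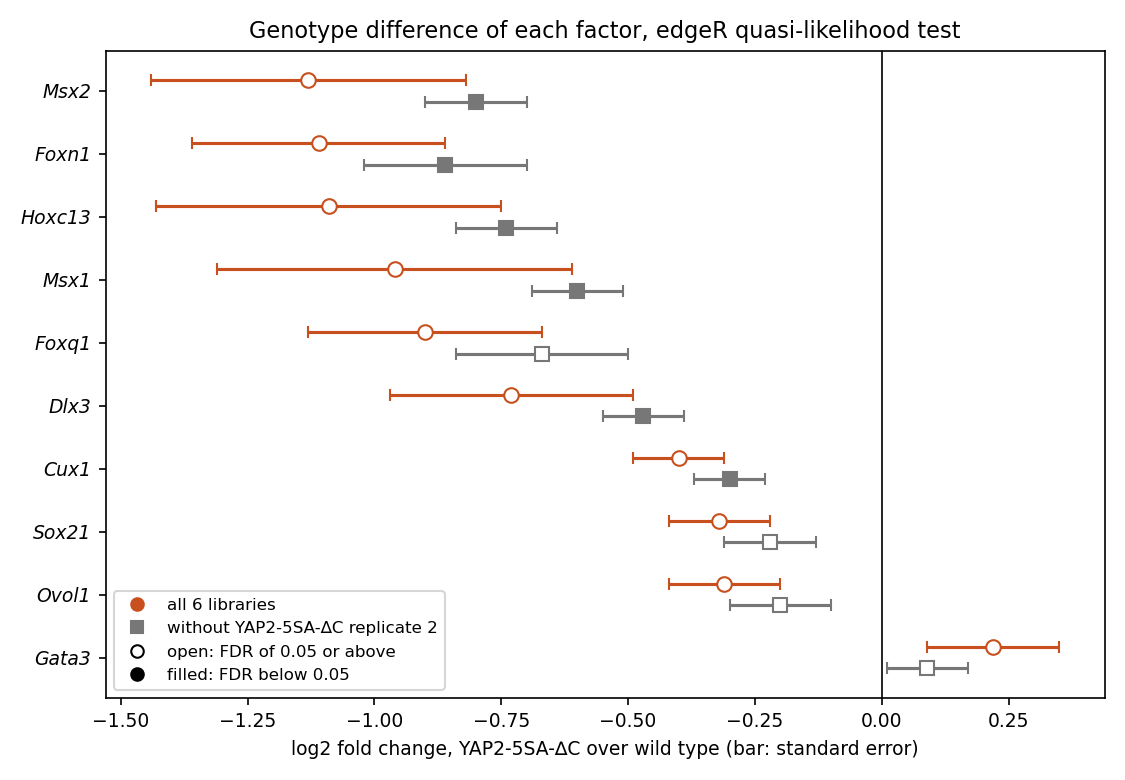
Log2 fold change (horizontal axis, YAP2-5SA-∆C over wild type, with bars for the standard error) of each factor in the quasi-likelihood test, with all 6 libraries (circles) and without YAP2-5SA-∆C replicate 2 (squares), filled where the FDR was below 0.05. No circle is filled, whereas 6 squares are, and 9 of the 10 factors lie left of 0 in both fits.

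Leaving out YAP2-5SA-∆C replicate 2 brought every fold change of the 10 nearer to 0 and made most standard errors smaller. That of *Msx2* became -0.80 (SE 0.10) and that of *Foxn1* became -0.86 (SE 0.16), with FDRs of 0.0132 and 0.0304 in the quasi-likelihood test of edgeR. *Hoxc13*, *Msx1*, *Dlx3* and *Cux1* passed as well, with FDRs between 0.0147 and 0.0487. *Dlx3* moved to -0.47 (SE 0.08) and *Ovol1* to -0.20 (SE 0.10). *Foxq1* (FDR 0.0712), *Sox21* (0.204), *Ovol1* (0.299) and *Gata3* (0.628) did not. Over the 6 fits that each left out 1 library, the fold change of *Msx2* lay between -1.33 and -0.80 and that of *Msx1* between -1.21 and -0.60. No factor changed its sign. With 3 mice against 3, the two-sided exact permutation test of a single gene cannot give a p-value below 0.1, which it gave for each of the 9 non-overlapping factors, and it gave 0.4 for *Gata3*.

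The spread among YAP2-5SA-∆C mice was part of the pattern. Relative to its mean, the spread of every one of the 10 factors was larger in YAP2-5SA-∆C than in wild type skin. The coefficient of variation of *Hoxc13* was 7.35% among wild type and 46.1% among YAP2-5SA-∆C mice, and that of *Msx1* 2.39% and 47.9%. For *Sox21* it was 8.22% and 10.6%. As a share of the wild type mean, YAP2-5SA-∆C replicate 2 held 22.4% for *Hoxc13*, 23.1% for *Msx1*, 24.0% for *Msx2* and 29.7% for *Foxn1*, whereas replicates 1 and 3 held 50.7% to 67.8% for these 4 genes. *Foxq1* and *Dlx3* followed the same order of libraries, at 36.6% and 37.4% in replicate 2 and 55.1% to 74.6% in the others. *Cux1*, *Sox21* and *Ovol1* were at 67.0% to 70.6% in replicate 2 and at 78.2% to 93.7% in the others.

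**Figure D3:**
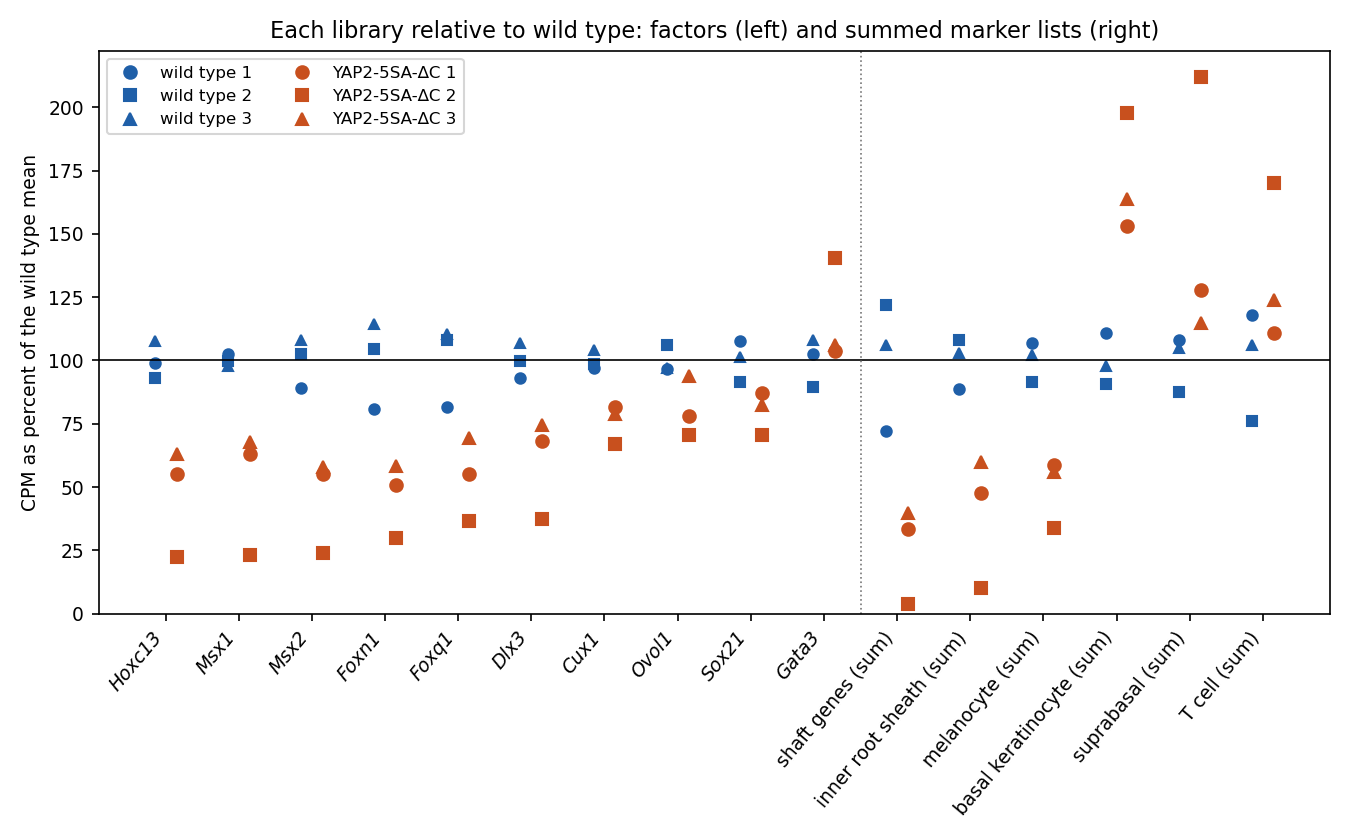
Level in each library as a percentage of the wild type mean (vertical axis) of the 10 factors on the left and of the summed CPM of 6 marker lists on the right, with symbols for the 6 libraries. YAP2-5SA-∆C replicate 2 (orange square) is lowest for 9 factors and for the shaft, inner root sheath and melanocyte sums, and highest for the basal keratinocyte, suprabasal and T cell sums.

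The genes that these factors are known to serve lay lower in the same libraries. Of 17 genes of the hair shaft (hair keratins and shaft proteins), 16 were tested, and the 3 YAP2-5SA-∆C libraries were below the wild type libraries for all 16. The quasi-likelihood test called 0 of them, DESeq2 called 0 (FDRs of 0.0768 to 0.261), the likelihood-ratio test called 16 lower, and the median log2 fold change was -1.82. The likelihood-ratio calls fell to 4 without wild type replicate 2 and to 10 without wild type replicate 3, and stayed at 16 without any other library. *Krt84*, a hair keratin, had 26.1, 68.1 and 55.4 CPM in wild type and 8.99, 2.29 and 19.9 CPM in YAP2-5SA-∆C skin, a difference of -2.26 on the log2 scale (SE 0.70) with a quasi-likelihood FDR of 0.106. *Dsg4*, the desmosomal cadherin of the shaft, had 156, 178 and 171 CPM and 75.5, 14.4 and 81.8 CPM, a difference of -1.56 on the log2 scale (SE 0.55) with an FDR of 0.136. *Krt32* and *S100a3* had log2 fold changes of -1.62 and -1.73. The summed level of the shaft genes was 4310, 7310 and 6320 CPM in wild type and 2000, 231 and 2370 CPM in YAP2-5SA-∆C skin. YAP2-5SA-∆C replicate 2 thus held 3.86% of the wild type mean of the shaft genes, below the percentage of any of the 10 factors in that library.

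All 9 inner root sheath genes were tested and were below wild type without overlap in YAP2-5SA-∆C skin. Of these, 0 passed the quasi-likelihood test, 0 passed in DESeq2 (FDRs of 0.144 to 0.241) and 8 were lower in the likelihood-ratio test, with a median log2 fold change of -1.39. Without wild type replicate 2 the likelihood-ratio test called 0 of the sheath genes, without wild type replicate 3 it called 2, and without any other library 8 or 9. *Krt28*, *Krt74*, *Krt73* and *Krt25*, keratins of the sheath layers, had log2 fold changes of -1.39, -1.20, -1.32 and -1.42, with quasi-likelihood FDRs of 0.133 to 0.155. With 1 library left out at a time, the fold change of *Krt74* ranged from -1.64 to -0.79 and that of *Krt25* from -1.79 to -0.95. The sum over the list was 12900 to 15800 CPM in wild type and 6930, 1450 and 8740 CPM in YAP2-5SA-∆C skin. In YAP2-5SA-∆C replicate 2 the sheath genes together were at 9.95% of wild type. There *Dlx3*, *Cux1* and *Gata3*, which all act in this sheath, were at 37.4%, 67.0% and 140.4%. Without that library the quasi-likelihood test called 15 shaft genes and 8 sheath genes lower, beside 2.74% of all genes. Whether the shaft and sheath genes follow the levels of the factors was not tested.

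Among markers of other cells, the melanocyte list lay lower in YAP2-5SA-∆C skin, as 9 of the 10 factors did, and the basal keratinocyte and macrophage sums lay higher. Of 5 melanocyte genes, 2 (*Dct* and *Tyrp1*) were called lower by the quasi-likelihood test and all 5 by the likelihood-ratio test and by DESeq2. All 5 likelihood-ratio calls held in 6 of 6 fits with a single library dropped. Their sums were 407 to 477 CPM in wild type and 261, 151 and 249 CPM in YAP2-5SA-∆C skin. Of 6 basal keratinocyte genes, 1 (*Krt14*) was called higher by the quasi-likelihood test and 3 by the likelihood-ratio test, and the sums were 3310 to 4050 CPM in wild type and 5580, 7210 and 5960 CPM in YAP2-5SA-∆C skin. *Krt14*, the partner keratin of the basal layer, rose in YAP2-5SA-∆C skin to 3180 ± 300 CPM from 1650 ± 19.6 CPM (SD, n = 3 each), with a quasi-likelihood FDR of 0.03. Macrophage genes summed to 304 to 359 CPM in wild type and 435 to 479 CPM in YAP2-5SA-∆C skin, with 2 of 5 (*Mrc1* and *Csf1r*) higher in both tests. Of 6 fibroblast genes 0 passed either test, with overlapping sums of 9430 to 12800 CPM and 12200 to 15900 CPM. With 1 library dropped at a time, the quasi-likelihood call of *Krt14* held in 3 of 6 fits, that of *Mrc1* in 2 (without YAP2-5SA-∆C replicate 1 or 2), and those of *Csf1r*, *Dct* and *Tyrp1* only without YAP2-5SA-∆C replicate 2. The FDR of *Mrc1* reached 0.178 and that of *Csf1r* 0.186 in the other fits. DESeq2 called 5 of the basal keratinocyte, 3 of the macrophage and 2 of the fibroblast genes higher. No gene of these lists was at 0 in any library, and the part of these cells in the values of the factors was not tested. Skeletal muscle genes ranged from 1250 to 6080 CPM in wild type and from 1200 to 3120 CPM in YAP2-5SA-∆C skin, in another order of libraries than the factors.

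Among 19 other transcription factors of the follicle and epidermis, the differences ran in both directions. The quasi-likelihood test called 1 lower and 0 higher, with a median log2 fold change of -0.12. *Trps1*, a GATA-type repressor of the follicle, fell from 236, 211 and 215 CPM to 158, 120 and 146 CPM, a difference of -0.64 on the log2 scale (SE 0.11) with an FDR of 0.0437. Of the 6 fits that each left out 1 library, only that without YAP2-5SA-∆C replicate 2 kept this call, and the FDR of *Trps1* reached 0.178 in the others. The likelihood-ratio test called 4 lower (*Trps1*, *Lef1*, *Tbx1* and *Foxe1*) and 3 higher (*Foxi3*, *Nfatc1* and *Satb1*), and all of these except *Trps1* are named after their values were seen. With 1 library left out, the likelihood-ratio call of *Tbx1* held only without YAP2-5SA-∆C replicate 1 (FDR up to 0.259) and that of *Satb1* only without YAP2-5SA-∆C replicate 1 or 3 (up to 0.252). Those of *Nfatc1* and *Foxe1* were lost without wild type replicate 2 or 3 and that of *Lef1* without wild type replicate 3, where its FDR was 0.0532. *Foxi3* passed the filter only through its 3 YAP2-5SA-∆C libraries and was not tested when any of these was left out. *Lef1*, the partner of beta-catenin in the matrix, had 84.2, 88.1 and 95.9 CPM in wild type and 58.7, 26.4 and 54.5 CPM in YAP2-5SA-∆C skin, again with replicate 2 the lowest. *Nfatc1*, a factor of hair follicle stem cells, had 32.4, 23.9 and 27.8 CPM and 39.7, 49.3 and 37.2 CPM, with replicate 2 the highest.

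Close relatives of the 10 factors were mostly at low levels. Of 22 listed paralogs, 14 were in the table and 9 passed the filter on low counts. The quasi-likelihood test called 0 of the 9, the likelihood-ratio test called 2 higher (*Gata2* and *Dlx5*) and 1 lower (*Dlx4*), and the median log2 fold change was 0.22. The call of *Dlx5* held only without wild type replicate 1 when 1 library was left out (FDR up to 0.534), and DESeq2 did not make it (FDR 0.24). Those of *Gata2* and *Dlx4* were lost without wild type replicate 2, and that of *Dlx4* also without wild type replicate 3. *Dlx4* had 8.61, 11.3 and 13.1 CPM in wild type and 7.27, 1.59 and 4.61 CPM in YAP2-5SA-∆C skin, a difference of -1.28 on the log2 scale (SE 0.47) with a quasi-likelihood FDR of 0.142. *Gata2* had 3.13, 2.72 and 3.23 CPM and 4.61, 6.75 and 4.73 CPM, a difference of 0.83 on the log2 scale (SE 0.19) with an FDR of 0.0622. *Dlx5* and *Gata6* had log2 fold changes of 0.88 and 0.57 at a few CPM or less.

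Of 17 genes for signals of follicle differentiation (WNT, BMP, hedgehog, Notch, ectodysplasin and FGF), 1 was lower in the quasi-likelihood test and 0 were higher, with a median log2 fold change of -0.35. *Notch1*, the receptor that keeps matrix progeny on their lineage, fell from 336, 322 and 319 CPM to 241, 227 and 253 CPM, a difference of -0.44 on the log2 scale (SE 0.06) with an FDR of 0.0398. Its call too was kept only without YAP2-5SA-∆C replicate 2 when 1 library was left out, and its FDR reached 0.178 otherwise. In YAP2-5SA-∆C skin it was similar in the 3 libraries, replicate 2 included. The likelihood-ratio test called 4 lower and 0 higher, namely *Notch1*, *Wnt5a*, *Wnt10b* and *Fgf5*, of which the last 3 are named after their values were seen. With 1 library left out, the call of *Fgf5* held in 6 of 6 likelihood-ratio fits, that of *Wnt10b* in 5 (not without wild type replicate 2), that of *Wnt5a* in 3 (lost without each of the wild type libraries) and that of *Notch1* in 2 (without YAP2-5SA-∆C replicate 2 or 3). The study had selected *Fgf5* on these samples for assay by RT-PCR, so its direction is not independent evidence. That assay, on the same cohort, found lower *Fgf5* too. In cultured HaCaT keratinocytes the study found *FGF5* unchanged after knockdown of YAP and lower in quiescent cells. Genes of the cell cycle, which matrix cells express, did not pass either edgeR test (0 of 7, sums of 1110 to 1210 CPM in wild type and 977 to 1190 CPM in YAP2-5SA-∆C skin).

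Levels can be compared between the factors only per length, and were divided by the length of the annotated exons for this purpose (CPM per kb of exon). In wild type skin *Dlx3* stood highest at 50.3, followed by *Ovol1* at 26.0, *Gata3* at 25.9, *Cux1* at 21, *Msx2* at 18.9, *Hoxc13* at 17.9, *Foxn1* at 11.3, *Sox21* at 11, *Msx1* at 6.08 and *Foxq1* at 5.64 CPM per kb. Neighbours in this order overlapped between libraries for *Ovol1* and *Gata3*, *Cux1* and *Msx2*, *Msx2* and *Hoxc13*, *Foxn1* and *Sox21*, and *Msx1* and *Foxq1*. In YAP2-5SA-∆C skin *Dlx3* and *Gata3* had the same mean of 30.3 CPM per kb, and their libraries overlapped. *Sox21* (8.78 CPM per kb) stood next to *Msx2* (8.64) and *Hoxc13* (8.41) there, all 3 overlapping. With the length of the longest transcript in place of all exons, *Cux1* moved to 32.7 CPM per kb in wild type and to the second place, and *Ovol1* to the fourth.

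**Figure D4:**
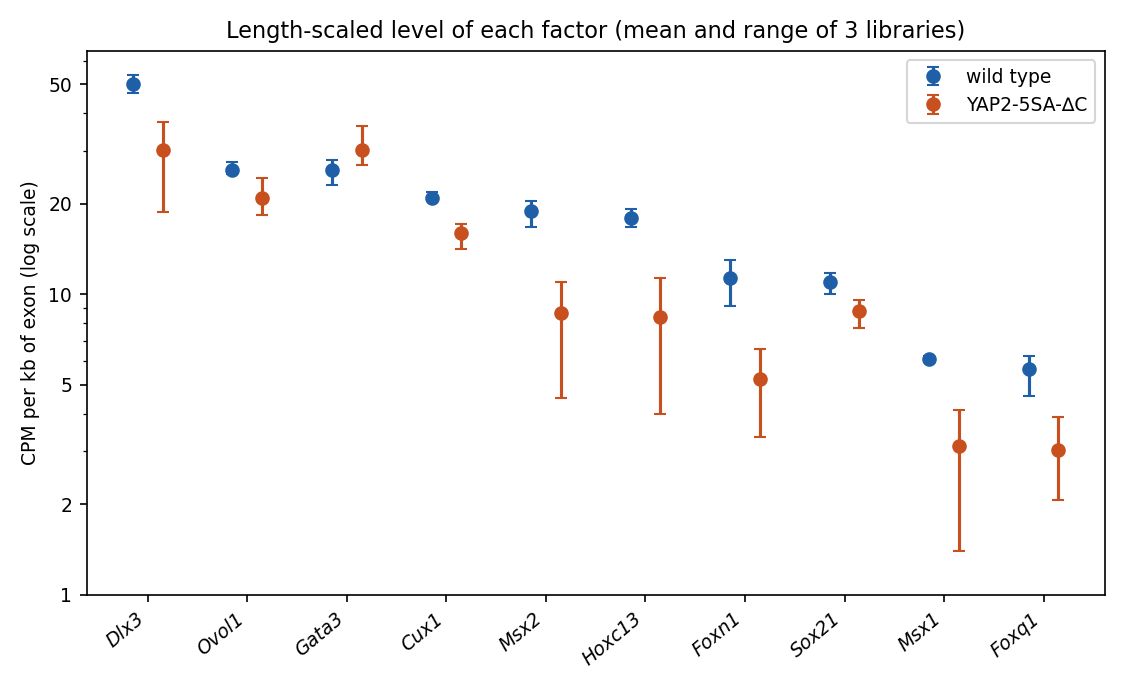
Length-scaled level (vertical axis, CPM per kb of exon, log scale) of each factor in wild type and YAP2-5SA-∆C skin, with points for the mean and bars for the range of 3 libraries. *Dlx3* is the highest factor in wild type at 50.3 CPM per kb, and the YAP2-5SA-∆C range lies below the wild type range for all factors but *Gata3*.

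The profiles over the 6 libraries were compared by the root mean square difference of standardised log2 CPM, which is 0 for equal profiles and had a median of 1.27 between all tested genes and the factors used as reference. Among the 10 factors, the most alike were *Msx2* and *Dlx3* (0.0824), *Hoxc13* and *Dlx3* (0.0838), *Foxn1* and *Foxq1* (0.0969) and *Hoxc13* and *Msx1* (0.116). *Gata3* differed from each of the other 9 by 1.66 to 1.78. Of all genes tested, *Utp14b* (0.0378), *Acsl3* (0.0442), *Erc1* (0.0507) and ENSMUSG00000030771 (0.0727) were among the 5 nearest to *Foxn1*. The identifier ENSMUSG00000030771 is absent from GENCODE M21, so no name is given for it here. *Cldn12* (0.0580), *Bmp8a* (0.0666), *Fam83c* (0.0716), the melanocyte gene *Mlana* (0.0782) and *Dclk3* (0.0800) were nearest to *Hoxc13*. These are descriptions over 6 libraries, in which the genes share genotype, mouse and depth.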

How the data were processed

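The 6 RNA-Seq libraries (3 mice of each genotype) were analysed from the table of raw counts per gene that the authors deposited. The authors aligned read pairs to GRCm38 and used HTSeq to count those with a unique position, and the submitters' processing notes name TopHat2 2.0.12 and Bowtie2 2.1.0. The paper describes mRNA libraries, whereas the labels name a kit for stranded total RNA. The annotation release and strand setting of the counting are not given in the sources used here. Groups were taken from the sample labels and columns were matched by name. No pairing of the mice is stated, and p-values measure the spread between these mice only.

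Genes that reached 1 CPM in 3 or more libraries (15102 of 26579) were scaled with TMM in R 4.3.3. The main test was the bias-adjusted quasi-likelihood test of edgeR 4.0.16 with genotype as the only term, fitted over all tested genes and adjusted by Benjamini-Hochberg with a threshold of 0.05, and tested on simulated data. The standard error was the log2 fold change divided by the square root of F. The alternatives were the likelihood-ratio test with common and then tagwise dispersions and voom of limma 3.58.1, both from the methods of the study, DESeq2 1.42.0, other scalings and filters, a block for the replicate number, and omission of each library in turn. No library appeared to be deposited in duplicate (chi-square per gene between replicates of 12.4 to 67.2).

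Names, positions and exon lengths came from GENCODE M21, in which 558 identifiers of the table are absent. Log2 CPM for profiles used a prior count of 2, or 0.5 as the alternative. The 10 factors and all gene lists were chosen with earlier results of these data known. Named were all 10 factors, from each list of related genes those passing the main test or else the 4 of lowest p, from each marker list at most 3 of the highest mean CPM, and the 5 genes nearest to *Foxn1* and to *Hoxc13*, of which 1 is not reported here.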

Additional observations from a re-analysis of the deposited data

How the results depend on the processing

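The fold changes of the 10 factors kept their sign under every alternative run. Taking each factor under each alternative, 122 values stayed on the same side of the threshold as in the main test and 18 passed it newly, and among the alternatives added after seeing the data 32 stayed and 38 passed. The quasi-likelihood test called 0 factors with RLE or upper-quartile scaling, without a filter, and with at least 10 counts in every library, and voom called 0. The likelihood-ratio test and DESeq2 called 6 each. Leaving out 1 library at a time, the quasi-likelihood test called 0 to 6 factors, with 6 only without YAP2-5SA-∆C replicate 2, and the likelihood-ratio test, a choice made after seeing the data, called 4 to 6, with 4 without wild type replicate 2 or 3.

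Over all genes, the 288 calls of the quasi-likelihood test became 497 without a filter, 1568 with the likelihood-ratio test and 1590 with DESeq2. When 1 library was left out they ranged from 0 to 816. The 816 calls came when YAP2-5SA-∆C replicate 2 was dropped. Dropping replicate 1 gave 142 calls for the wild type mouse and 83 for the YAP2-5SA-∆C mouse. The quasi-likelihood test of edgeR called 0 genes when wild type replicate 2 (2725 genes at an unadjusted p under 0.05), replicate 3 of the same genotype (2844) or YAP2-5SA-∆C replicate 3 (3692) was dropped. The likelihood-ratio test called 1694, 617 and 760 genes without wild type replicates 1, 2 and 3, and 1401, 1248 and 1364 without YAP2-5SA-∆C replicates 1, 2 and 3. Calls in the lists of related genes went from 2 to 38 with the likelihood-ratio test and ranged from 0 to 29 without 1 library, with 29 without YAP2-5SA-∆C replicate 2. In fits added after seeing the data, DESeq2 called 15 of these genes, and the likelihood-ratio test called 36, 8 and 17 without wild type replicates 1, 2 and 3 and 36, 36 and 37 without YAP2-5SA-∆C replicates 1, 2 and 3. The cause of these differences was not tested.

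The replicate numbers are not stated to mark pairs. Same-numbered mice had correlations of -0.33, -0.23 and -0.05 in their deviations from the group means. With 3 mice a group, these values cannot tell whether mice shared a litter. With the replicate block, the quasi-likelihood test of edgeR called 0 genes (2949 with an unadjusted p-value under 0.05) and 0 factors, and the likelihood-ratio test with the block, added after seeing the data, called 1060 genes and 6 factors. The lowest count of any factor was the 74 of *Msx1* in YAP2-5SA-∆C replicate 2.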

Other observations

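The dermal papilla, the group of fibroblasts that instructs the matrix, did not follow the 10 factors as a list. Of its 6 listed markers, 5 were tested, 0 passed the quasi-likelihood test of edgeR and 1 (*Corin*) was lower in the likelihood-ratio test, and the sums were 250 to 302 CPM in wild type and 228 to 273 CPM in YAP2-5SA-∆C skin. *Corin*, a protease of the papilla, had 18.2, 14.0 and 15.9 CPM in wild type and 10.9, 4.87 and 9.59 CPM in YAP2-5SA-∆C skin, a difference of -0.92 on the log2 scale (SE 0.28) with a quasi-likelihood FDR of 0.100 and a likelihood-ratio FDR of 0.0051. Like most of the factors it was lowest in YAP2-5SA-∆C replicate 2. *Vcan*, a matrix proteoglycan of the papilla and the dermis, had 247 ± 24.2 CPM and 229 ± 23.0 CPM (SD, n = 3 each).

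Of 4 keratin genes of stressed or outer root sheath keratinocytes, 2 (*Krt16* and *Krt6b*) passed the quasi-likelihood test with higher values in the transgenic mice, and the likelihood-ratio test and DESeq2 each called 3 higher and 1 lower. *Krt6b* is named after its values were seen. The quasi-likelihood call of *Krt16* held in 2 and that of *Krt6b* in 1 of the 6 fits that each left out 1 library, whereas the likelihood-ratio calls of *Krt16*, *Krt6b* and *Krt6a* held in 6 of 6. *Krt6a* was at 201 ± 55.0 CPM and 483 ± 198 CPM (SD, n = 3 each), with FDRs of 0.0797 (quasi-likelihood), 0.000746 (likelihood-ratio) and 0.0237 (DESeq2). *Krt17*, which the outer root sheath and matrix also make, had a log2 fold change of -0.63 (SE 0.22), with FDRs of 0.128 (quasi-likelihood), 0.0374 (likelihood-ratio) and 0.0181 (DESeq2). Its likelihood-ratio call held in 2 of 6 fits with a single library dropped. The sums of the 4 genes were 1190 to 1580 CPM in wild type and 2050, 1220 and 2360 CPM in YAP2-5SA-∆C replicates 1, 2 and 3. Replicate 2 was thus the lowest YAP2-5SA-∆C library for these keratins as it was for the shaft keratins, and the highest for the basal and suprabasal lists. Adipocyte genes did not pass either edgeR test (0 of 5, 621 to 867 CPM in wild type and 543 to 899 CPM in YAP2-5SA-∆C skin).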
